A study of Mus musculus with 54 samples.

Results

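The first 4 weeks on normal chow were compared in aortas of both strains of the study, C57 (C57Bl/6) and C3H (C3H/HeJ), by setting the week 4 chow arrays against the week 0 arrays of the same strain. The comparison rests on 12 of the 54 arrays of the series, chosen by their titles: 3 arrays of C57 at week 0, 3 of C57 at week 4 on chow, 3 of C3H at week 0 and 3 of C3H at week 4 on chow. Total RNA of aorta was hybridised on every array together with total RNA of mouse embryos at embryonic day 17.5, which served as the common reference. The other 42 arrays cover weeks 8, 24 and 40 on chow and weeks 4, 8, 24 and 40 on a high-fat diet in both strains. Titles name week 8 where the source field lists another week, and the titles were followed. No source used here gives the age at week 0, the sex, or whether an array held 1 aorta or a pool. Every p-value below therefore rests on the spread between arrays alone, and that spread may be technical.

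The aorta of a young mouse is still maturing after weaning. Its smooth muscle cells pass from growth and the laying down of elastin and collagen towards a quiescent, contractile state, and genes of cell division and matrix synthesis are known to decline as vessels mature. C57Bl/6 mice are known to develop fatty aortic lesions on atherogenic diets and C3H/HeJ mice to resist them, and chow animals of both strains give the course without such a diet.

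Values are the deposited log ratios of aorta and embryo RNA per array feature, centred on each array's median. Base 10 is likely, since the deposited values stop at exactly 2 and -2, but no source used here states the base or the direction. A feature is called higher or lower by the sign of the deposited table, and all signs would turn together if the ratio ran embryo over aorta. Features carry their number and no gene name, because the platform annotation was not borne out. Mean ratios of features listed with the same accession correlated at -0.03 across 375 pairs, and those with the same symbol at 0.00 across 1048 pairs. Markers of smooth muscle, endothelium, fat or blood could therefore not be read, and the tissue label was not checked against them. In whole aorta, fewer cells of a type and less RNA per cell cannot be told apart.

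The 12 arrays correlated with one another at r from 0.570 to 0.951 across 20694 features. The SD of the log ratios over features was 0.256 ± 0.0133 at week 0 and 0.244 ± 0.0452 at week 4 (mean ± SD, n = 6 arrays each), a difference of -0.01 that was within the spread of arrays (two-sided exact permutation test within strain, p = 0.78, smallest possible 0.005). The array of C57 at week 4 with number 3 stood apart with an SD of 0.161, against 0.236 to 0.294 on the other 11. Without it the difference in SD turned to 0.00789 (exact permutation p = 0.41).

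Over the first 4 weeks on chow, 96 of 21179 features changed in the mean of both strains (limma, Benjamini-Hochberg adjusted p under 0.05), which is 0.453% of those tested. The ratio of 41 rose (0.194%) and that of 55 fell (0.26%). The size of the change among called features had a median of 0.179 and ran from 0.0837 to 0.457, against a median of 0.0326 over all features. At an unadjusted p under 0.05, 2453 features or 11.6% passed. All 6 differences between a week 4 array and the week 0 array of the same strain and number were above 0 in 31 of the 41 and below 0 in 50 of the 55. Over all features this held for 5.12% in the upward and 4.9% in the downward direction. The week 4 and week 0 arrays did not overlap at all in 6 of the 41 and 22 of the 55, against 0.165% and 0.274% of all features. These counts come from the same arrays that gave the calls, so larger shares among called features follow from the choice and lend it no support. The number of calls depended on single arrays and on the replicate number in the fit. It was 85 without C57 week 4 number 3, the array with the small SD, with 64 features shared by both sets of calls, and the balance of directions turned to 45 higher and 40 lower. It also turned with array weights, at 1010 higher and 564 lower. The count was 54 without C57 week 0 number 1, 59 without C3H week 0 number 1, 60 without C3H week 0 number 3 and 60 without C3H week 4 number 1, and it was 13 when the replicate number was left out of the fit.

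**Figure D1:**
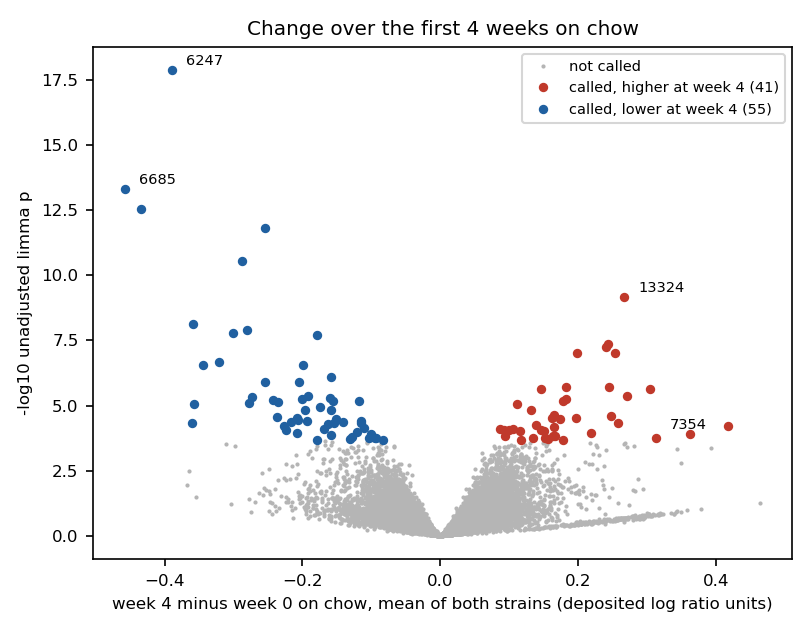
Each point is 1 of 21179 features, placed by its week 4 minus week 0 difference on chow in the mean of both strains (deposited log ratio units) and by the -log10 of its unadjusted limma p. The 41 features called higher are red and the 55 called lower are blue, and feature 6247 lies highest on the left with a difference of -0.39.

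The sharpest fall was that of feature 6247. In C57 its log ratio was 0.43, 0.48 and 0.45 on the week 0 arrays and 0.14, 0.05 and 0.01 on the week 4 arrays. In C3H it was 0.51, 0.52 and 0.54 at week 0 and 0.17, 0.10 and 0.13 at week 4. Every week 4 array lay below every week 0 array, and both strains moved alike. The ratio fell by 0.39 (SE 0.0237, adjusted p = 2.87e-14), which is 2.45-fold if the base is 10, and the call held under all 24 alternatives tried.

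Features 6685 and 6999 fell furthest and varied together. Feature 6685 stood at 0.43, 0.41 and 0.10 in C57 at week 0 and at 0.04, -0.02 and -0.32 at week 4. In C3H it stood at 0.76, 0.57 and 0.42 at week 0 and at 0.13, 0.22 and -0.11 at week 4. Within each strain the weeks did not overlap, and the array numbered 3 was the lowest of its group in all 4 groups. Its ratio fell by 0.46 (SE 0.0390, adjusted p = 5.28e-10) and that of 6999 by 0.43 (SE 0.0393, adjusted p = 2.08e-09). On the 42 arrays outside the comparison both features correlated at r = 0.934, and their mean levels differed by 0.0134. In C57 on chow both were back at their week 0 level at week 8 and low again at weeks 24 and 40. At weeks 0, 4, 8, 24 and 40 the C57 mean of 6685 was 0.31, -0.10, 0.30, -0.16 and -0.21. That of 6999 was 0.27, -0.14, 0.29, -0.14 and -0.18. In C3H the means were 0.58, 0.08, -0.02, 0.02 and 0.02 for 6685 and 0.52, 0.06, -0.06, -0.002 and 0.04 for 6999.

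Feature 1087 lay far below 0 from the start. It read -0.90, -0.80 and -0.71 in C57 at week 0 and -1.17, -1.16 and -1.11 at week 4, and in C3H -0.71, -0.85 and -0.74 at week 0 and -1.15, -1.15 and -1.12 at week 4. The week 4 arrays of both strains sat within a narrow band below all week 0 arrays. The difference was -0.36 (SE 0.0482, adjusted p = 2.23e-05). Feature 15762, at -0.62 to -0.35 on the week 0 arrays and -1.01 to -0.79 on the week 4 arrays, also showed no overlap, with a difference of -0.34 (adjusted p = 0.000347).

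Feature 11462 lay well above 0 and came down towards it. Its values were 0.93, 0.92 and 0.77 in C57 at week 0 against 0.72, 0.60 and 0.14 at week 4, and 0.92, 0.81 and 0.75 in C3H at week 0 against 0.60, 0.70 and 0.52 at week 4. All week 4 arrays lay below all week 0 arrays, and C57 week 4 number 3 was lowest. The difference was -0.30 (SE 0.0419, adjusted p = 3.88e-05). Feature 12276 ran from 0.23 to 0.51 at week 0 and from -0.10 to 0.12 at week 4, a difference of -0.29 (adjusted p = 1.19e-07). Feature 22474 ran from 0.61 to 0.71 at week 0 and from 0.13 to 0.48 at week 4, a difference of -0.28 (adjusted p = 3.21e-05). Neither of these overlapped between weeks. Feature 22451, the highest of the named features, read 1.39, 1.33 and 1.23 in C57 at week 0 and 1.09, 1.11 and 0.54 at week 4, and 1.36, 1.33 and 1.20 against 0.93, 1.05 and 0.95 in C3H. It too showed no overlap, with a difference of -0.36 (adjusted p = 0.0172), and was called under 15 of 24 alternatives. The other fallers among the 12 largest were 299, 14283 and 4153, with differences of -0.32, -0.28 and -0.27.

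Among the features that rose, 7734 showed no overlap between weeks. In C57 it read -0.27, -0.27 and -0.54 at week 0 and 0.08, -0.08 and -0.04 at week 4, and in C3H -0.12, -0.24 and -0.32 at week 0 and -0.02, 0.14 and -0.01 at week 4. The difference was 0.30 (SE 0.0546, adjusted p = 0.00206), or 2.02-fold if the base is 10. Feature 7354, the riser with the largest difference among the named features, lay near the lower end of the scale. It ran from -1.77 to -1.38 at week 0 and from -1.36 to -0.94 at week 4, with a difference of 0.36 (SE 0.0846, adjusted p = 0.0332). Its weeks did not overlap either, but its standard error was large and its call held under only 10 of 24 alternatives.

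Feature 13324 had the smallest p of all risers and a larger difference in C3H than in C57. Its C57 arrays read 0.10, 0.08 and -0.14 at week 0 and 0.23, 0.17 and -0.02 at week 4, and the C57 weeks overlapped. Its C3H arrays read 0.03, 0.03 and -0.26 at week 0 and 0.46, 0.38 and 0.21 at week 4, with no overlap. The mean difference was 0.27 (SE 0.0324, adjusted p = 2.39e-06), while the difference between strains did not pass (-0.30, SE 0.0648, adjusted p = 0.13). Feature 3015 went from -0.31, -0.22 and -0.18 to 0.33, -0.05 and 0.03 in C57 and from -0.28, -0.25 and -0.35 to 0.05, -0.14 and -0.19 in C3H. C57 week 4 number 1 was the highest array, and the lowest week 4 array reached the highest week 0 array. Its difference was 0.27 (SE 0.0504, adjusted p = 0.00352). The remaining named risers were 11782, 9169, 10892, 6713, 21337, 18463, 15685 and 795, with differences from 0.18 to 0.25, of which 15685 was called under only 5 of 24 alternatives.

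**Figure D2:**
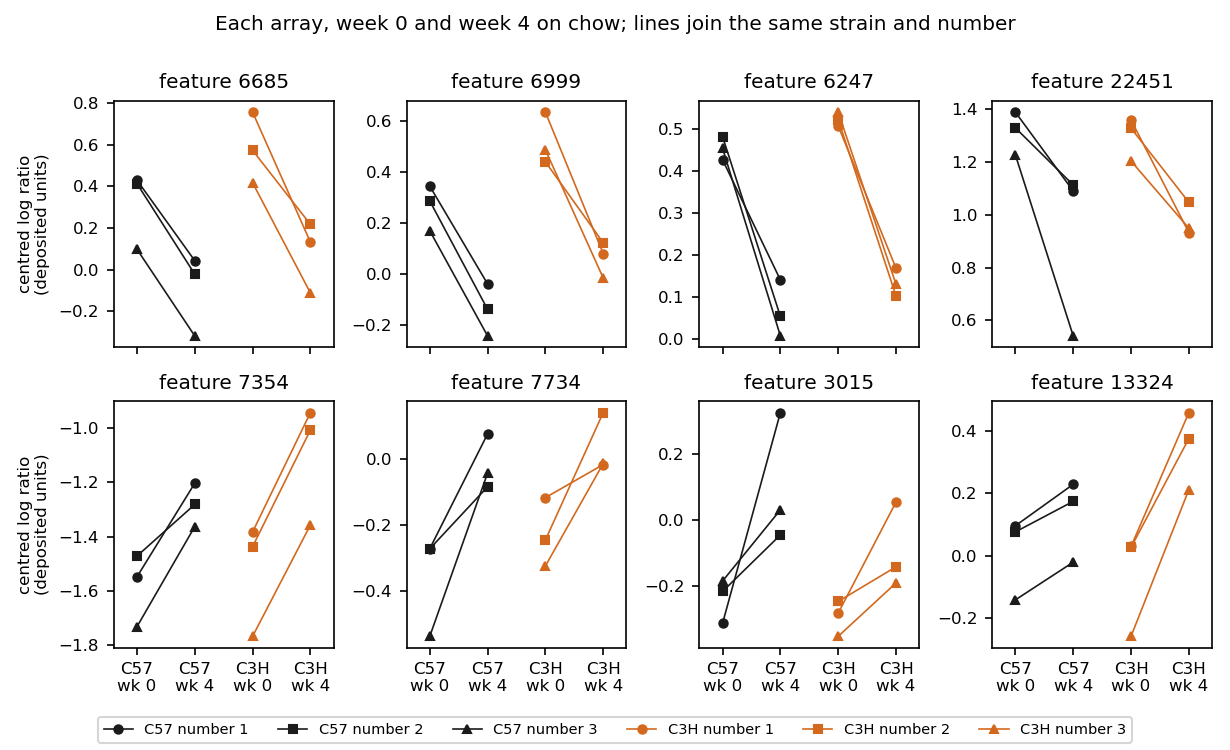
Centred log ratios (deposited units) of 8 named features on each of the 12 arrays, with lines that join the week 0 and week 4 arrays of the same strain and number; C57 is black and C3H brown. Feature 6247 drops from 0.43 to 0.54 at week 0 to 0.01 to 0.17 at week 4 on every line, and the number 3 arrays (triangles) of feature 6685 lie lowest in each group.

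The called features did not lie on 1 side of the embryo reference. On the 42 arrays outside the comparison, 19 of the 41 risers and 33 of the 55 fallers had a mean level above 0, against 50.5% of all features. By that sign, 41 of 96 moved away from 0 during the 4 weeks, or 42.7%, against 42.5% of all features. Levels more than 0.3 from 0 were held by 12 of the 41 and 12 of the 55, against 2544 of all 21179. A total of 8 called features fell into 3 sets whose members correlated at r over 0.9 with at least 1 other member on those 42 arrays. One set was 6685 with 6999, and another was 8716, 19099 and 795, with r from 0.992 to 0.998 and mean levels within 0.0116 of one another. The third was 11462, 4153 and 2868, with r from 0.876 to 0.954. Just inside the threshold lay features 10864, 22510 and 15685 with adjusted p of 0.048, 0.0484 and 0.0484, and just outside lay 8055 and 7685 at 0.052 each, with differences of -0.17 and -0.16.

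Some features had a large mean difference but varied widely between arrays of the same group. A mean difference over 0.15 with an unadjusted p over 0.1 was found in 212 features, while only 36 had a difference under -0.15 with such a p. The 212 were picked for these values after they were seen, so that none of them is called follows from the choice. On the 42 other arrays their median pairwise correlation was 0.901, so they varied together. Their median log ratio was -1.15, -0.83 and -0.98 in C57 at week 0 and -1.19, -0.86 and -0.05 at week 4. In C3H it was -0.61, -1.01 and -0.86 at week 0 and -0.20, -0.85 and -0.84 at week 4. A single week 4 array per strain, number 3 in C57 and number 1 in C3H, was far higher than the rest, and the remaining arrays overlapped. Their differences of 0.15 to 0.36 had a median SE of 0.212. C57 week 4 number 3 is also the array with the smallest SD, and its part in these differences was not tested.

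After week 4 the called features followed different courses. In the mean of both strains, feature 6247 stayed near its week 4 level. Its chow means were 0.49 ± 0.04, 0.10 ± 0.06, 0.13 ± 0.08, 0.07 ± 0.05 and 0.04 ± 0.06 at weeks 0, 4, 8, 24 and 40 (SD, n = 6 arrays of both strains). The mean of weeks 8 to 40 differed from week 4 by -0.02 with a 95% interval of -0.06 to 0.02. Within strains its level moved more. At weeks 4, 8, 24 and 40 its chow mean was 0.07, 0.19, 0.04 and 0.004 in C57. In C3H it was 0.13, 0.07, 0.10 and 0.08. A strain difference in this later course was not tested. Feature 299 went on falling, from 0.18 ± 0.13 at week 0 and -0.14 ± 0.18 at week 4 to -0.21, -0.49 and -0.50 at weeks 8, 24 and 40. Its later mean lay below week 4 (difference -0.26, SE 0.0413, adjusted p = 0.000426). Feature 11462 did the same, with means of 0.85, 0.55, 0.45, 0.24 and 0.19 and a later difference of -0.26 (adjusted p = 2.12e-05).

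Risers split in a similar way. Feature 7734 reached 0.01 at week 4 from -0.29 and stood at -0.01, -0.04 and -0.07 at weeks 8, 24 and 40, a later difference of -0.05 with an interval of -0.14 to 0.04. Feature 13324 rose from -0.03 to 0.24 and was at 0.06, 0.03 and -0.05 afterwards, so week 4 was the highest of its 5 chow means. It fell between weeks 4 and 8 (difference -0.17, SE 0.0324, adjusted p = 0.0266), and its later mean lay below week 4 (-0.22, adjusted p = 4.73e-06). Feature 10892 went from -0.25 to -0.01 and back to -0.18, -0.25 and -0.30 in the mean of both strains, with a later difference of -0.23 (adjusted p = 7.94e-06). By group means, feature 10892 came back at different steps in the strains, a difference that was not tested. Between weeks 4 and 8 it changed by -0.32 in C57 and by -0.02 in C3H, and in C3H by -0.17 between weeks 8 and 24. All differences between week 4 and later weeks share the week 4 arrays with the early change. In all, 37 features were called between week 4 and the mean of weeks 8 to 40, or 0.175%, with 15 higher and 22 lower later.

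**Figure D3:**
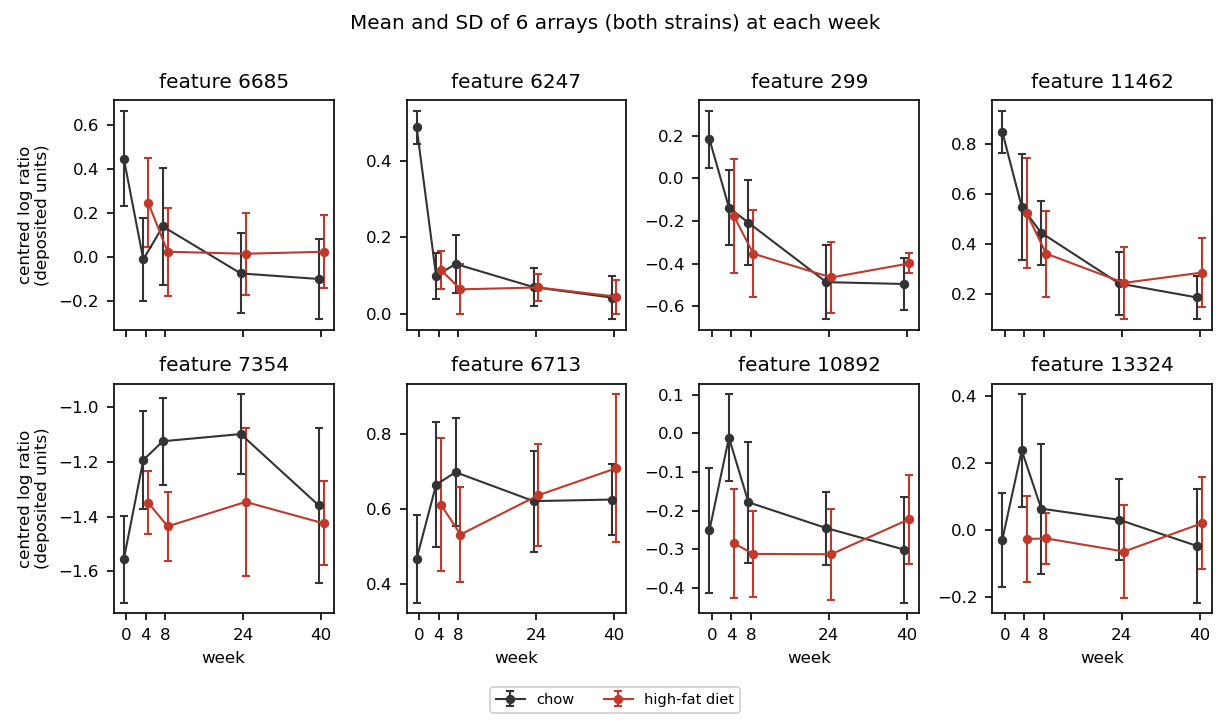
Mean and SD of the centred log ratio (deposited units) over 6 arrays of both strains at weeks 0, 4, 8, 24 and 40, for chow (black) and high-fat diet (red) and 8 features. Feature 6247 is at 0.49 at week 0 and at 0.10 at week 4 on chow and stays near that level, features 299 and 11462 go on falling, and 13324 and 10892 have their highest chow mean at week 4.

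The same features were also looked at on arrays outside the early contrast. Those arrays entered the fit that gave the calls, through the spread and the replicate number, so the look is not fully independent. Between weeks 8 and 40 on chow, 38 of the 41 early risers and 40 of the 55 early fallers had a difference below 0, or 92.7% and 72.7%, against 54.8% of all features. The median differences were -0.06 and -0.09, against -0.01 over all features. On the high-fat diet between weeks 4 and 40, 9 of the 41 and 48 of the 55 were below 0, or 22.0% and 87.3%, against 49.9% of all features, with medians of 0.05 and -0.07. Most early fallers thus had a lower ratio at week 40 than at the start of the span on both diets. Most early risers had a lower ratio at week 40 than at week 8 on chow, and a higher one than at week 4 on the high-fat diet. The spans start at different weeks, so these shares are no contrast of the diets. Features within a list are not independent, so these shares are given without a test.

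Taken strain by strain, the same 4 weeks gave 15 called features in C57 (0.0708%) and 48 in C3H (0.227%). In C57, 1 rose and 14 fell, and in C3H 28 rose and 20 fell. At an unadjusted p under 0.05 there were 964 and 1941. Among the 14 fallers called in C57, features 6685, 6999 and 6247 had the largest differences, of -0.41, -0.41 and -0.39, and 3015 was the only riser called (0.34, adjusted p = 0.0407). All 15 features called in C57 had the same sign in C3H, with a median of 0.238 in the direction of their C57 change. Among the 48 called in C3H the C57 change ran the same way in 35 (72.9%), with a median of 0.0780, and among all features in 65.9%. Across all features the changes of both strains correlated at r = 0.360, which is across features and no replicate measure. Both counts hang on single arrays: C57 gave 13 without week 4 number 1 and 5 to 8 without any other array of its 6, and C3H gave 27, 29, 30 and 23 without week 0 number 1, week 0 number 3, week 4 number 1 and week 4 number 3.

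Tested directly, the early change differed between strains in 2 features (0.00944%), with 567 at an unadjusted p under 0.05. Feature 17767 read -0.39, -0.41 and -0.63 in C57 at week 0 and -0.46, -0.48 and -0.11 at week 4. In C3H it read 0.51, 0.43 and 0.23 at week 0 and -0.29, -0.40 and -0.68 at week 4. All C3H arrays crossed from above 0 to below it, to the level that C57 already had at week 0. The change was 0.13 in C57, which did not pass (limma adjusted p = 0.985), and -0.85 in C3H. The strain difference was 0.98 (SE 0.139, adjusted p = 0.000509). In C57 the same-number differences were -0.06, -0.07 and 0.52. Its positive mean thus came from week 4 number 3 alone, the array with the smallest SD. Feature 5293 went from 0.80, 0.80 and 0.54 to 0.79, 0.56 and 0.22 in C57 and from 0.69, 0.63 and 0.38 to 1.03, 0.99 and 0.96 in C3H. Its strain difference was -0.61 (SE 0.108, adjusted p = 0.0190), with a rise of 0.43 in C3H (adjusted p = 0.00245) and a change of -0.19 in C57 that did not pass. It was called under 13 of 24 alternatives, and without C57 week 4 number 3 it missed the threshold (-0.52, adjusted p = 0.262). Without C57 week 4 number 1, 20 features were called.

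**Figure D4:**
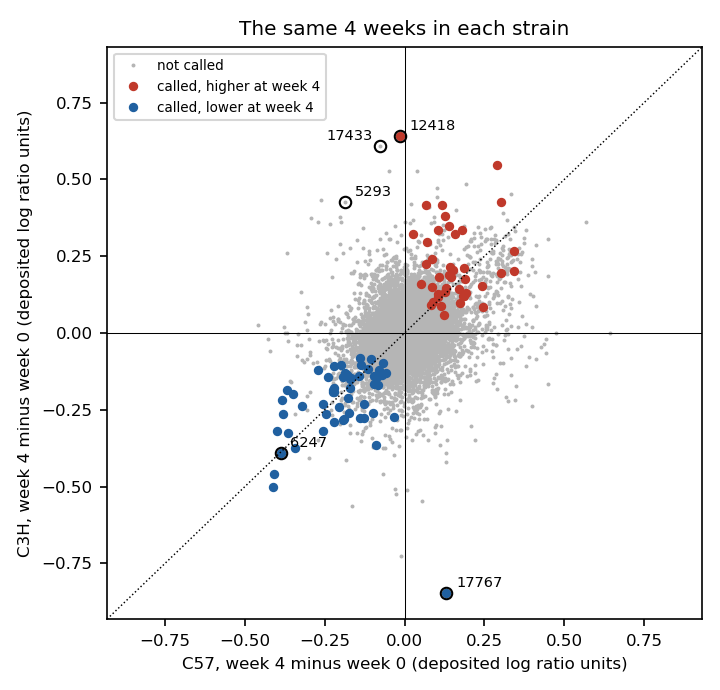
Week 4 minus week 0 on chow in C57 (horizontal) and in C3H (vertical), in deposited log ratio units, for 21179 features; red and blue mark the features called higher or lower in the mean of both strains, and the dotted line marks equal change. Feature 6247 lies on the line near -0.39 in both strains, while 17767 is at 0.13 in C57 and -0.85 in C3H.

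A small group of features varied with 17767 on the other arrays. Over the 42 arrays outside the comparison, with the mean of each replicate number removed, 15 other features correlated with it at r over 0.7 or under -0.7, 4 positively and 11 negatively. With 17767 they make 16 of 21179 features (0.0755%). Of these 16, 12 were among the 48 called in C3H, 7 were among the 96 called in the mean of both strains and 0 were among the 15 called in C57. Feature 17767 was picked for its strain difference in the early change and is itself counted among the 12 and the 7. The others were picked for their correlation with it, so these counts are not independent of that choice. In C3H, 14 of the 15 others changed in the direction that their correlation with the falling 17767 gives, the exception being 5037. Outside this group, 36 features were called in C3H, and the C57 change ran the same way in 30, against 65.9% of all features. The group was built around a feature picked because its strains differed. More likeness of the strains outside it can therefore follow from the choice. Feature 5293 was no member, with r = -0.01.

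The members show what happened in C3H. Feature 12418 read 0.14, -0.06 and -0.09 in C3H at week 0 and 0.53, 0.66 and 0.72 at week 4, a rise of 0.64 (SE 0.106, adjusted p = 0.000765). In C57 it read 0.54, 0.58 and 0.56 at week 0 and 0.75, 0.69 and 0.19 at week 4. Feature 17433 read -0.06, 0.05 and -0.05 in C3H at week 0 and 0.63, 0.59 and 0.55 at week 4, a rise of 0.61 (SE 0.0942, adjusted p = 0.000278). For both, C3H at week 4 came to lie where C57 lay at week 0, and C3H at week 0 lay below all arrays of the other 3 groups. Features 10004 and 1643 rose by 0.44 and 0.42 in C3H (adjusted p = 0.0398 and 2.23e-06), and 364 fell by 0.35 (adjusted p = 0.00133).

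The group did not follow a steady course with age. On chow, the mean of 17767 in C3H went from 0.39 at week 0 to -0.46 and -0.40 at weeks 4 and 8 and to 0.30 and 0.37 at weeks 24 and 40. In C57 it was -0.48, -0.35, 0.34, -0.03 and -0.20 at those 5 time points. The low level thus held in C3H at weeks 4 and 8 and in C57 at weeks 0 and 4. On the high-fat diet at week 4 the means were 0.39 in C57 and -0.24 in C3H. The 18 group means of 17767 had an SD of 0.333, against 0.121 between arrays within groups, both with the replicate number removed. The arrays within a group thus lay closer together than the groups, and groups of neighbouring weeks could lie far apart. No value in the labels tells apart an effect of week from any other property shared by the 3 arrays of a group.

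**Figure D5:**
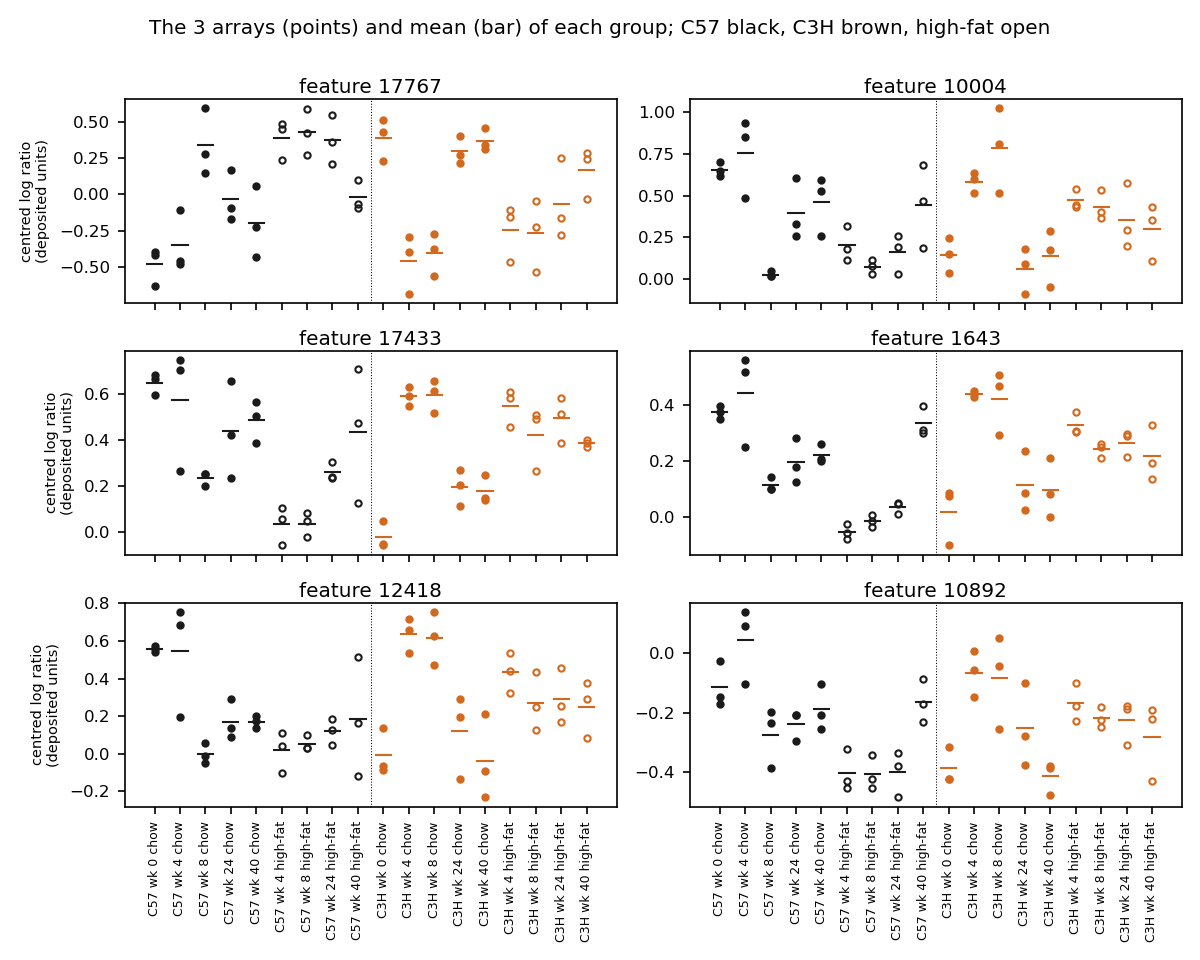
Centred log ratio (deposited units) of 6 features in all 18 groups, with each array as a point and the group mean as a bar; C57 is black, C3H brown, chow filled and high-fat diet open. The arrays of most groups cluster, and feature 17767 steps between about -0.4 and 0.4 from group to group, with 12418, 17433, 10004, 1643 and 10892 moving the opposite way.

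Animals on the high-fat diet passed the same 4 weeks, and their week 4 arrays were set against the same week 0 arrays. This gave 97 called features (0.458%), 59 higher and 38 lower. Because both changes share the week 0 arrays, their values are only set side by side. The 41 chow risers had a median of 0.17 on chow and 0.08 on the high-fat diet, and the 55 chow fallers -0.20 and -0.14. All features had medians of 0.004 on chow and 0.008 on the high-fat diet. Both lists were picked for a large chow change, so smaller medians on the high-fat diet can follow from the choice. They do not show a weaker change on that diet. Feature 6247 fell by 0.37 on the high-fat diet (adjusted p = 1.05e-13) and by 0.39 on chow. Feature 7734 differed from week 0 by 0.31 on the high-fat diet (adjusted p = 0.00162) and by 0.30 on chow. For 6685 the values were -0.20 (adjusted p = 0.00610) and -0.46, and for 13324 they were 0.00 (adjusted p = 0.982) and 0.27.

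The direct contrast of the diets at week 4 called 23 features (0.109%), 12 higher and 11 lower on the high-fat diet. Features 6247 and 7734 did not pass, with differences of 0.02 (95% interval -0.03 to 0.06) and 0.00 (-0.11 to 0.11). For 7734 the strains ran opposite ways and cancelled in the mean. Its week 4 means were -0.12 on the high-fat diet and -0.02 on chow in C57, and 0.15 and 0.04 in C3H. Whether the strains differed in this was not tested. Feature 6685 was higher on the high-fat diet, where its arrays read 0.42, 0.23 and 0.03 in C57 and 0.42, 0.40 and -0.01 in C3H (difference 0.26, SE 0.0390, adjusted p = 0.000395). Feature 13324 was lower, with arrays at -0.10, 0.05 and -0.24 in C57 and 0.05, 0.10 and -0.02 in C3H (-0.26, SE 0.0324, adjusted p = 9.36e-06). Feature 4912 had means of 0.21 at week 0 and at week 4 on chow and stood at 0.59 ± 0.13 at week 4 on the high-fat diet (0.38, SE 0.0673, adjusted p = 0.00395). The group around 17767 supplied 8 of the 23, with 17767 itself at 0.48 and 12418 at -0.36, but the choice of that group had used the high-fat arrays.

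Later steps on chow are set beside the first. Between weeks 4 and 8, 4 features were called (0.0189%), 17767, 4155 and 727 higher by 0.37, 0.18 and 0.16 and 13324 lower. Between weeks 8 and 24, 22 were called (0.104%), 1 higher and 21 lower, and 8 of the 55 early fallers but 0 of the 41 early risers were among them. Feature 2868, an early faller at -0.21, fell most in that step (-0.34, SE 0.0441, adjusted p = 7.14e-05). Between weeks 24 and 40, 93 were called (0.439%), all lower, and 2 of the 41 early risers and 0 of the 55 early fallers were among them. These counts moved with single arrays, from 0 to 7 between weeks 4 and 8, from 1 to 31 between weeks 8 and 24 and from 14 to 150 between weeks 24 and 40. The count was 0 between weeks 4 and 8 without any 1 of 7 of its 12 arrays (C3H week 4 numbers 1 and 3, C3H week 8 number 2, C57 week 4 numbers 1 and 2, and C57 week 8 numbers 2 and 3). It was 1 between weeks 8 and 24 without any 1 of C3H week 8 number 2, C3H week 24 number 1 and C57 week 24 number 1. Between weeks 24 and 40 it was lowest without C57 week 24 number 2 and highest without C3H week 40 number 1.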

How the data were processed

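The authors deposited 1 table of log10 ratios (base likely, from the cap at 2 and -2) of 21446 features on 54 two-colour arrays. No source used here gives the dyes, the direction, the background correction or the normalization. Exact zeros, 1647 or 0.640% of the values of the 12 arrays, were treated as not measured, and 13 values lay at the cap. Each array's median over the 20694 features with a value on every array was subtracted. A feature was tested if each of the 18 groups held 2 or more measured values, which 21179 did and 267 did not. Ratios carry no signal over background, and precision is limited by how few arrays there are.

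limma 3.58.1 in R 4.3.3 fitted 18 group means plus the replicate number to all 54 arrays (lmFit, contrasts, eBayes, two-sided, Benjamini-Hochberg over 21179 features per comparison). Numbers come from the titles. Week 0 and week 4 arrays of the same strain and number deviated together in all 6 pairs, at r from 0.112 to 0.667. Number 1 set against number 2 did so too, at r of 0.334 and 0.163 in C57 and 0.282 and 0.234 in C3H. Number 3 set against 1 or 2 gave r from -0.575 to -0.242. These values thus set number 3 apart but did not tell numbers 1 and 2 from each other. Features are named by a rule: the 12 largest called risers and fallers whose 6 same-strain, same-number differences share a sign, and up to 3 per direction in other comparisons. Other features in the text were chosen after their values were seen. The comparison, features and lists were chosen with earlier results of these data known. Gene lists were not tested, for want of gene names. The calling was tested on simulated data.

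Alternatives were zeros kept, no centring, quantile normalization, one spread for all arrays, no replicate number, series (strain, diet and number) as a fixed or random block, the 12 arrays alone, numbers 1 and 2 alone, array weights, features measured on all arrays, a trended robust prior, and each array left out in turn. Leaving out arrays of comparisons other than the early change was added after the data were seen.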

Additional observations from a re-analysis of the deposited data

Results flagged for a closer look

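The early change of feature 17767 differed between strains (C57 minus C3H difference 0.98, limma adjusted p = 0.000509 for the difference itself), with all C3H arrays crossing from above to below 0. Feature 5293 also differed (-0.61, adjusted p = 0.0190), with a rise in C3H and none called in C57. Among the 6 differences of feature 22474 between week 4 and week 0, that of C57 number 3, at -0.58, lay far from the others; 26 sets of 6 values were tested in this way, and chance gives such a gap in about 1 in 20 sets. C57 week 4 number 3 is the array with the smallest SD over features.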

How the results depend on the processing

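Counts below are of called features (limma). The count for the mean of both strains was 96, and 13 (3 higher, 10 lower) without the replicate block, 13 with the 12 arrays alone, 27 with numbers 1 and 2 alone and 1574 with array weights (1010 higher, 564 lower). Without the block the counts in C57, C3H and the strain difference were 2, 12 and 0, with the 12 arrays alone 0, 4 and 0, with numbers 1 and 2 alone 2, 20 and 0, and with weights 163, 952 and 50. Scaling to 1 spread gave 6 in C57 and 19 for the strain difference, quantile normalization 17 and the random block 7 for the latter. For weeks 4 to 8, 8 to 24, 24 to 40, week 4 to later weeks, the high-fat change and the diet difference at week 4, the counts without the block were 0, 0, 5, 7, 8 and 3. With numbers 1 and 2 alone they were 0, 9, 7, 21, 11 and 14, and with weights 73, 490, 288, 398, 1020 and 109. The random block gave 0 for weeks 4 to 8, 6 for weeks 8 to 24, 6 for the high-fat change and 3 for the diet difference, and the fixed series block 238 and 199 for the last pair. Scaling gave 18, 4, 51 and 36 for the same 4 comparisons as the random block. Quantile normalization gave 18 for weeks 4 to 8, 11 for weeks 8 to 24, 61 for week 4 to later weeks and 41 for the diet difference.

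With each array left out in turn, the counts ran from 54 to 85 for the mean, 5 to 13 in C57, 23 to 47 in C3H, 1 to 20 for the strain difference, 0 to 7, 1 to 31 and 14 to 150 for the 3 chow steps, 20 to 57 for week 4 to later weeks, 47 to 115 for the high-fat change and 11 to 37 for the diet difference. The difference in array SD turned from -0.0114 to 0.00789 without C57 week 4 number 3. No named feature changed sign under any alternative, while 286 of 1543 feature results lost their call. Features were named for large called differences, so the kept signs largely follow from the naming rule. The cause of these shifts in counts and calls was not tested. Ratios give no signal over background, so a limit from dim features cannot be set.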
